A study of Mus musculus with 8 samples.

Results

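The 10 genes described here are commonly used as markers of the smooth muscle cells and pericytes of blood vessels. 5 of them encode proteins of the smooth muscle contractile apparatus (Acta2, Tagln, Myh11, Cnn1 and Smtn), and 5 are widely used as pericyte genes (Rgs5, Pdgfrb, Cspg4, Abcc9 and Notch3). They were chosen by name and matched to the gene symbols of the expression tables ignoring case, taking the locus with the highest mean where a symbol had several. All 10 were found among 39614 loci with a gene symbol, of 80155 loci in all. All 10 reached 1 FPKM (fragments mapped to a gene, scaled by the length of the transcript and by the fragments mapped in the library) in at least 1 heart and were tested. From the first postnatal day (P1) to the seventh (P7), Smtn, Pdgfrb and Notch3 rose to 2.29 to 2.45 times the P1 mean, Cnn1 fell to 0.434 times, and the other 6 did not pass the test. These results depended on the processing. Fits with 1 heart left out gave 0 to 7 of the 10 passing, where 199 of 41471 and 3379 of 41540 loci passed. A correction for transcript GC content left 0 of the 10 and 486 of 43172 loci. Notch3 passed in 7 of the 8 fits with 1 heart left out.

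Smooth muscle cells and pericytes are together called mural cells. Smooth muscle cells wrap arteries and larger veins and set vessel tone through actin and myosin filaments, whose genes are activated by serum response factor (SRF) and its partner myocardin through DNA elements named CArG boxes. Pericytes sit on capillaries, where endothelial cells attract them by secreting PDGF-B, the ligand of the receptor encoded by Pdgfrb, and signal to them through Notch ligands. Acta2 and Tagln are not exclusive to vessels, since immature heart muscle cells and activated fibroblasts also express them.

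The study compared hearts of male Hsd:ICR(CD-1) mice, an outbred stock, at 2 ages around the loss of the heart's regenerative capacity. It took 4 hearts at P1 and 4 at P7, with no genetic change or treatment in either group. Whole hearts without their atrial appendages were used, so every value is an average over all cell types of the organ. RNA depleted of ribosomal RNA was made into 1 library per heart.

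All libraries were from different animals, and P-values measure the spread between these hearts. The tables hold no fragment counts, so the depth behind a value is unknown. Between 14456 and 15790 annotated loci reached 1 FPKM in a heart. P1 replicate 4 stood apart from the other P1 hearts: 69.9% of the annotated loci were highest in it among P1 hearts, at a median of 1.36 times the mean of the other 3 and with a 95th percentile of 2.11 times. All 10 vascular genes were highest in this heart among P1 hearts, at 1.39 to 2.44 times the mean of the other 3 and a median of 2.05 times. The test of each gene is therefore given with and without P1 replicate 4. P1 replicate 3 differed in the other direction and was the lowest P1 heart for 7 of the 10 genes. It held 28662 loci at 1 FPKM or more, against 21382 to 22292 in the other P1 hearts.

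DNA stretches of 30 bases are shown first for those genes whose region just before the RefSeq transcription start holds a match to an element known from smooth muscle genes. 250 bases before the RefSeq start (GRCm38.p6) were searched on both strands for the CArG box, for the MCAT element GGAATG, which TEAD factors bind, and for the RBPJ element GTGGGAA of Notch target genes. A table entry was at hand for Acta2, Cnn1, Smtn, Rgs5, Cspg4, Abcc9 and Notch3. No window held a CArG box with its core made only of A and T, which 1.47% of 32851 windows of this length hold. Acta2 held 2 boxes with 1 core base that is not A or T, a looser form present in 8.59% of windows, and MCAT was found in Acta2, Smtn and Abcc9 against 12.6% of windows. The RBPJ letters, present in 5.42% of windows, were in none of the 7. A match describes letters in a window and is not evidence of binding. The RefSeq starts used for Acta2 and Smtn lie inside their GENCODE genes, which reach to chr19:34255590 and chr11:3540612 on the minus strand. All Acta2 and Smtn stretches shown therefore lie within the annotated gene spans. Sequences run 5′ to 3′ on the strand of the gene, with the match in capitals. In Acta2, on the minus strand, the looser CArG boxes began 84 and 34 bases before the start, at chr19:34255438-34255467 and chr19:34255388-34255417, and MCAT began 146 bases before it, at chr19:34255502-34255531.
Acta2 first looser CArG box: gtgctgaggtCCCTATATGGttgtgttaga
Acta2 second looser CArG box: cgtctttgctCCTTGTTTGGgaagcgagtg
Acta2 MCAT: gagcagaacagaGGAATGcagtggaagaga
Smtn MCAT, read on the other strand, at chr11:3539497-3539526 on the minus strand: cggtttgtggcaCATTCCggactttggctt
Abcc9 MCAT, at chr6:142702476-142702505 on the minus strand: tggtcctgaatgGGAATGgccggagtgatg

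On the FPKM scale, which corrects for length and so allows genes to be set side by side, Acta2 was the most abundant of the 10 at both ages and Myh11 the least. In P1 hearts the mean levels ran from 281 FPKM for Acta2 through 52.8 for Rgs5, 34.6 for Tagln, 32.8 for Abcc9, 14.2 for Smtn, 11.9 for Cnn1, 8.10 for Pdgfrb, 7.22 for Notch3 and 4.2 for Cspg4 to 2.03 for Myh11. Acta2 stood above Rgs5 in every P1 heart and the ranges of Abcc9 and Smtn were just apart, whereas all other neighbours in this order overlapped. In P7 hearts the order was Acta2 at 148 FPKM, Rgs5 at 96.8, Abcc9 at 34.2, Tagln at 33.7, Smtn at 32.8, Pdgfrb at 18.6, Notch3 at 17.7, Cspg4 at 7.00, Cnn1 at 5.16 and Myh11 at 3.13. The ranges of Rgs5 and Abcc9, of Smtn and Pdgfrb, of Notch3 and Cspg4, and of Cnn1 and Myh11 were apart at P7, and the other neighbours overlapped. Cnn1 moved from the sixth of the 10 at P1 to the ninth at P7.

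**Figure D1:**
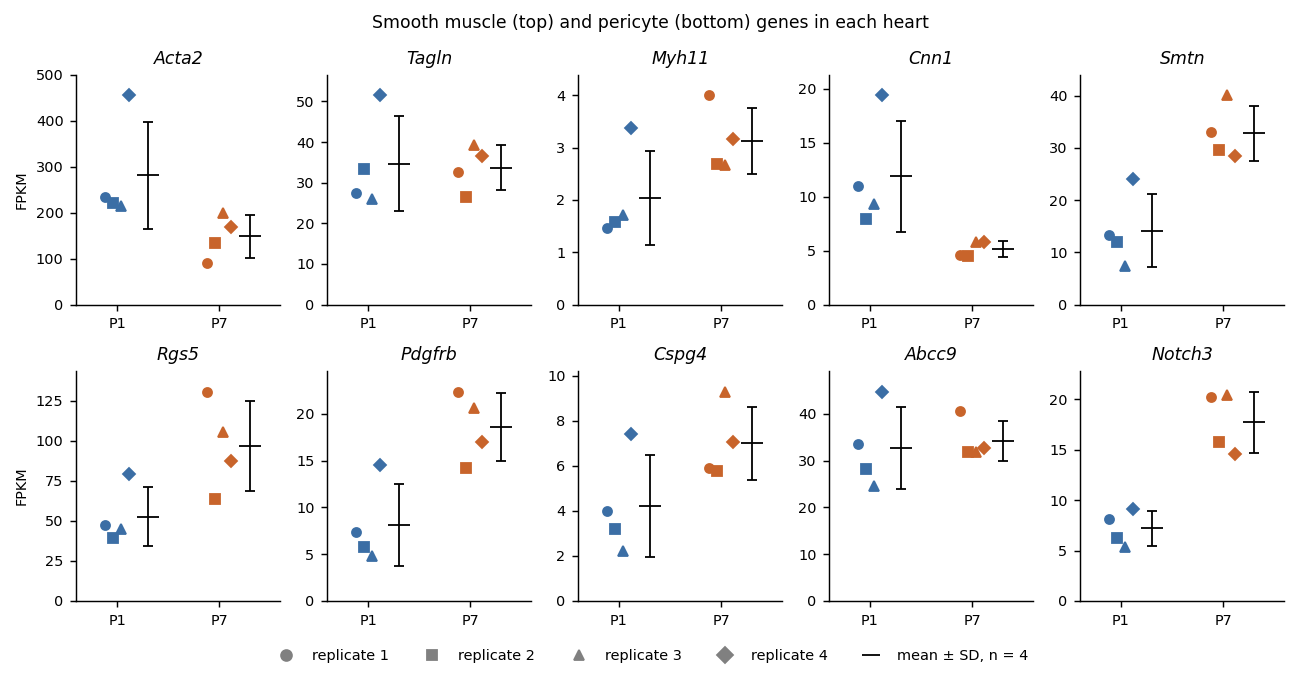
FPKM of the 10 genes in each heart, smooth muscle genes in the top row and pericyte genes in the bottom row. Each point is 1 heart (blue P1, orange P7, the shape gives the replicate number) and the black mark is the mean ± SD of 4 hearts; each panel has its own axis from 0. P1 replicate 4, the blue diamond, is the highest P1 heart in all 10 panels, and the stages are apart for Acta2, Cnn1, Smtn and Notch3.

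Each locus is given below by the GRCm38 coordinates of its deposited span, with an FPKM value for each heart. A span can differ from the annotated gene and take in other genes, as for Tagln and Smtn. A gene was called when its limma adjusted p was under 0.05 and its mean FPKM differed by at least 1.5-fold. 4 of the 10 genes were called, 3 higher and 1 lower at P7, where 3.82% of all tested loci and 8.14% of tested loci with a gene symbol were called, 7.74% higher and 0.401% lower. The median log2 fold change (P7 minus P1, on log2(FPKM + 1), which understates the change of low genes) was 0.58 over the 10 genes and 0.19 over all annotated loci tested. It was 0.000421 for the 5 contractile genes and 0.87 for the 5 pericyte genes. In 2 genes the whole P7 group lay above the whole P1 group, as in 17.3% of annotated loci, and in 2 it lay below, as in 2.69%. FPKM were also compared with a two-sided exact permutation test, not adjusted over genes. Acta2, Cnn1, Smtn and Notch3 each had an exact permutation p = 0.0286. Pdgfrb, although called, and Rgs5 each had an exact permutation p = 0.0571. Myh11 and Cspg4 each had an exact permutation p = 0.114. Abcc9 had an exact permutation p = 0.80 and Tagln an exact permutation p = 0.886. Because tissue RNA was measured, fewer cells of a type and less RNA per cell cannot be told apart in any of these values.

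Among the contractile genes, Cnn1 (locus at chr9:22099281-22109630), which encodes calponin 1, an actin-binding regulator of smooth muscle contraction, was the one called lower. It measured 11.0, 7.91, 9.29 and 19.4 FPKM in P1 replicates 1 to 4 and 4.63, 4.47, 5.78 and 5.75 FPKM in P7 replicates 1 to 4. All P7 hearts were below all P1 hearts and lay close together. The mean fell from 11.9 ± 5.15 to 5.16 ± 0.706 FPKM (SD, n = 4 each), and the log2 fold change was -0.998 (SE 0.25, limma adjusted p = 0.0438). Without P1 replicate 4 the stages stayed apart and the log2 fold change was -0.75 (limma adjusted p = 0.0292). This was the sole fit of the 8 with 1 heart left out in which Cnn1 was called.

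Acta2 (chr19:34241090-34255467) encodes smooth muscle alpha-actin, the thin filament actin of these cells. Its values were 235, 220, 214 and 455 FPKM in P1 replicates 1 to 4 and 90.7, 134, 199 and 168 FPKM in P7 replicates 1 to 4. Every P7 heart was below every P1 heart, and P1 replicate 4 was far above the other P1 hearts. The mean was 281 ± 116 FPKM at P1 and 148 ± 46.7 at P7 (SD, n = 4 each; exact permutation p = 0.0286, two-sided, the smallest this design allows). The log2 fold change of -0.90 (SE 0.30) did not pass over all loci (limma adjusted p = 0.126). Without P1 replicate 4 it was -0.65 (limma adjusted p = 0.143), again with no overlap. After scaling each heart by its median ratio to the mean of all hearts it was -1.17 (limma adjusted p = 0.0228), which passed. Of the 50-base windows of the Acta2 transcript, 0.352% occurred without a mismatch in another gene, and how reads shared with other actins were assigned is not given in the sources used here.

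Smtn (chr11:3514684-3540612) encodes smoothelin, an actin-binding protein of fully contractile smooth muscle with a long isoform in vessels, and it moved the other way. It measured 13.4, 12.03, 7.34 and 24.0 FPKM in P1 replicates 1 to 4 and 33.0, 29.7, 40.1 and 28.4 FPKM in P7 replicates 1 to 4. The lowest P7 heart was above the highest P1 heart, again replicate 4. The mean rose from 14.2 ± 7.02 to 32.8 ± 5.23 FPKM (SD, n = 4 each), and the log2 fold change was 1.25 (SE 0.28, limma adjusted p = 0.0327), and without P1 replicate 4 it was 1.53 (limma adjusted p = 0.00505). Smtn was called in 1 of the 8 fits with 1 heart left out, the one without that heart. The antisense genes Gm11946 and Gm11947 overlap its exons, 13.2% of its transcript windows also occur in Gm11946, and its locus takes in Selenom; whether fragments were counted by strand is not given in the sources used here.

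Myh11 (chr16:14194527-14291408) encodes the smooth muscle myosin heavy chain, the most cell-restricted of the contractile markers. It was at 1.47, 1.58, 1.71 and 3.37 FPKM in P1 replicates 1 to 4 and at 4.00, 2.68, 2.67 and 3.17 FPKM in P7 replicates 1 to 4. P1 replicate 4 lay inside the P7 range and the other 3 P1 hearts lay below all P7 hearts. The log2 fold change was 0.48 (SE 0.22, 95% confidence interval -0.00416 to 0.95, limma adjusted p = 0.274), and it was 0.66 (limma adjusted p = 0.0485, called) without P1 replicate 4.

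Tagln (chr9:45838576-45936058) encodes transgelin (SM22-alpha), an early smooth muscle protein that binds actin. Its values were 27.5, 33.5, 26.1 and 51.5 FPKM in P1 replicates 1 to 4 and 32.7, 26.5, 39.3 and 36.5 FPKM in P7 replicates 1 to 4. The stages overlapped fully, with a log2 fold change of 0.000421 (SE 0.23, 95% confidence interval -0.51 to 0.51, limma adjusted p = 0.999). It was 0.20 (limma adjusted p = 0.459) without P1 replicate 4, and its sign changed with the setting, to -0.26 with median-ratio scaling. The deposited locus of Tagln spans 97483 bases and also touches Bace1, Pcsk7 and Rnf214, and 48.3% of its transcript windows occur in the antisense gene Gm48529 or in Pcsk7, so part of its value may come from other genes.

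Of the pericyte genes, Notch3 and Pdgfrb, both receptors, were called. Notch3 (chr17:32113429-32166880) encodes the Notch receptor of mural cells, which is needed for arterial smooth muscle to mature. It was at 8.15, 6.21, 5.37 and 9.16 FPKM in P1 replicates 1 to 4 and at 20.2, 15.8, 20.4 and 14.5 FPKM in P7 replicates 1 to 4. No P7 heart overlapped with a P1 heart, and P1 replicate 4 differed less from the rest here than in any other of the 10 genes. The mean rose from 7.22 ± 1.74 to 17.7 ± 3.01 FPKM (SD, n = 4 each), and the log2 fold change was 1.20 (SE 0.21, limma adjusted p = 0.0137). Without P1 replicate 4 it was 1.31 (limma adjusted p = 0.00579). Notch3 was called in 7 of the 8 fits with 1 heart left out, not without P1 replicate 2 (limma adjusted p = 0.0579). A pair of further Notch3 loci over the same span had means of 1.82 and 1.03 FPKM at P1. With these loci added to the one used, the log2 fold change of Notch3 was 1.03 (limma adjusted p = 0.0241). The antisense gene Gm17276 overlaps its exons, 5.01% of its transcript windows also occur in other genes, and the strand setting of the counting is unknown.

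Pdgfrb (chr18:61045114-61085248) encodes the PDGF receptor beta, through which pericytes are recruited. It measured 7.35, 5.75, 4.77 and 14.5 FPKM in P1 replicates 1 to 4 and 22.4, 14.3, 20.7 and 17.0 FPKM in P7 replicates 1 to 4. P1 replicate 4 was slightly above P7 replicate 2, and the other hearts did not overlap. The mean rose from 8.10 ± 4.41 to 18.6 ± 3.64 FPKM (SD, n = 4 each; exact permutation p = 0.0571, two-sided). The log2 fold change was 1.20 (SE 0.28, limma adjusted p = 0.0379). It was 1.49 (limma adjusted p = 0.00425) without P1 replicate 4. Pdgfrb was called in 2 of the 8 fits with 1 heart left out, those without P1 replicate 4 and without P7 replicate 2.

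Rgs5 (chr1:169655501-169695813) encodes a regulator of G-protein signaling that dampens vasoconstrictor signals and is among the most abundant pericyte transcripts. Its values were 47.3, 39.2, 45.0 and 79.6 FPKM in P1 replicates 1 to 4 and 131, 63.7, 106 and 87.2 FPKM in P7 replicates 1 to 4. The stages overlapped through P1 replicate 4 and P7 replicate 2 alone. The log2 fold change was 0.87 (SE 0.27, 95% confidence interval 0.29 to 1.45, limma adjusted p = 0.101), and without P1 replicate 4 it was 1.08 (limma adjusted p = 0.0212, called).

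Cspg4 (chr9:56865104-56900482) encodes the proteoglycan NG2 on the pericyte surface. It was at 4.00, 3.17, 2.21 and 7.42 FPKM in P1 replicates 1 to 4 and at 5.91, 5.77, 9.28 and 7.06 FPKM in P7 replicates 1 to 4. P1 replicate 4 exceeded all P7 hearts but one, and the other 3 P1 hearts were below all of them. The log2 fold change was 0.69 (SE 0.28, 95% confidence interval 0.10 to 1.29, limma adjusted p = 0.201), and without that heart it was 0.96 (limma adjusted p = 0.0237, called).

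Abcc9 (chr6:142587862-142702382) encodes the sulfonylurea receptor SUR2, the regulatory subunit of ATP-sensitive potassium channels, which heart muscle cells use as well as pericytes. It measured 33.7, 28.2, 24.6 and 44.7 FPKM in P1 replicates 1 to 4 and 40.6, 31.8, 31.8 and 32.7 FPKM in P7 replicates 1 to 4. The P7 range lay inside the P1 range. The log2 fold change was 0.09 (SE 0.21, 95% confidence interval -0.37 to 0.54, limma adjusted p = 0.812). It was 0.25 (limma adjusted p = 0.361) without P1 replicate 4 and turned to -0.17 under median-ratio scaling. The antisense gene 5330439B14Rik overlaps its exons, and 2.21% of its transcript windows also occur in other genes.

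**Figure D2:**
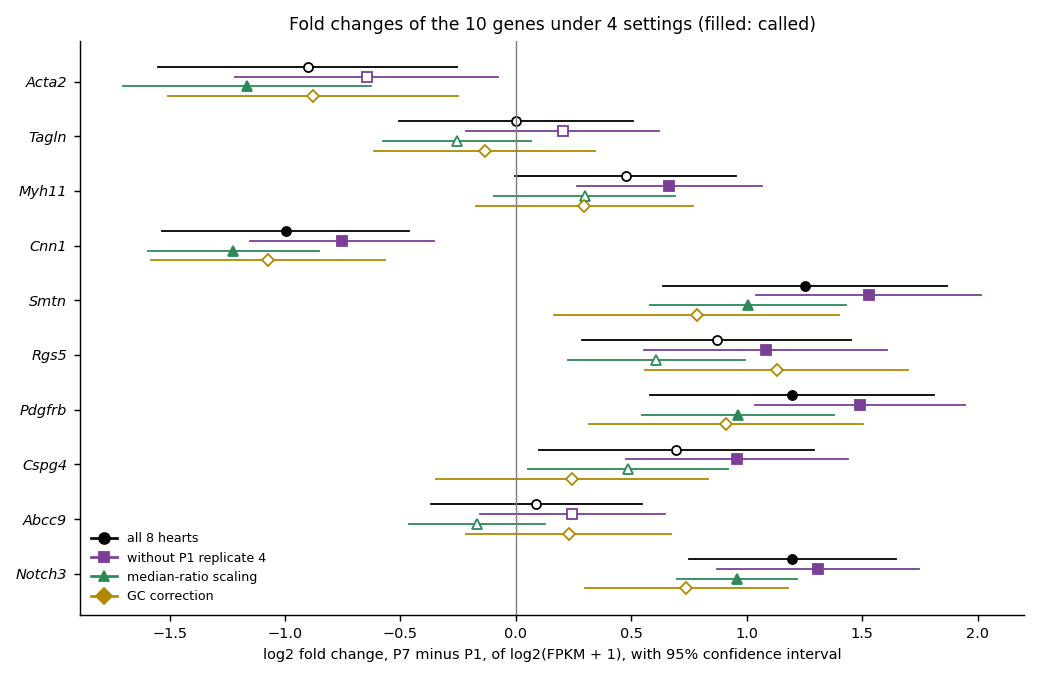
Log2 fold change (P7 minus P1, of log2(FPKM + 1)) of each gene with its 95% confidence interval from limma, for all 8 hearts (black), without P1 replicate 4 (purple), with median-ratio scaling (green) and with a GC correction (yellow); filled marks are called. Leaving out P1 replicate 4 moves all 10 values to the right and gives 7 calls, and the GC correction leaves 0.

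Without P1 replicate 4, the stages were apart in 8 of the 10 genes, with P7 above in 6 and below in 2, where P7 was above in 32.2% and below in 3.40% of annotated loci. 7 genes were then called, adding Myh11, Rgs5 and Cspg4, 6 of them higher and 1 lower, while the share of annotated loci called rose to 16%, 15.4% higher and 0.651% lower. Leaving out P1 replicate 3 instead lowered all 10 log2 fold changes, to 1.00 for Smtn, 1.01 for Pdgfrb and 0.49 for Cspg4. In that fit 1 gene, Notch3, and 425 of 17796 annotated loci were called. Median-ratio scaling called 3 of the 10 higher and 2 lower, Acta2 and Cnn1, against 11.3% of annotated loci, 7.42% higher and 3.85% lower. A correction for the GC content of the transcripts, added after the data were seen, left 0 genes called by limma (6 had an unadjusted p under 0.05), against 2.24% of annotated loci, 2.09% higher and 0.156% lower. With it the log2 fold change was -1.07 for Cnn1 (limma adjusted p = 0.0505), 0.78 for Smtn (limma adjusted p = 0.197) and 0.91 for Pdgfrb (limma adjusted p = 0.128). That of Notch3 went from 1.20 to 0.74 (limma adjusted p = 0.1002), and that of Rgs5 was 1.13 (limma adjusted p = 0.0593). For Cspg4 it went from 0.69 to 0.24. Among the 10 transcripts, GC content ran from 41.1% for Rgs5 to 60.1% for Smtn, with Notch3 at 59.6% and Cspg4 at 59.2%. No direction of the 8 genes other than Tagln and Abcc9 changed under the 22 other settings tried.

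Ratios of 2 genes within 1 heart do not move with a scaling common to all genes of that heart. They can move with effects that differ between genes, such as GC content, for which the ratios were not corrected. 9 such ratios were compared with a two-sided exact permutation test, and 6 of them were apart between the stages, a count that stayed at 6 or 7 whichever heart was left out (each p = 0.0286, the smallest possible with 4 hearts against 4, Benjamini-Hochberg adjusted p = 0.0429 over the 9). The ratios share genes and are not independent of each other, and most of their genes are themselves among the 10 described.

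Acta2 relative to Myh11 was 160, 140, 125 and 135 in P1 replicates 1 to 4 and 22.7, 49.8, 74.7 and 53.1 in P7 replicates 1 to 4. The ratio of the thin to the thick filament gene was thus 3.03-fold lower at P7 and nearly even among P1 hearts, including P1 replicate 4. Tagln relative to Myh11 ranged from 15.2 to 21.2 at P1 and from 8.18 to 14.7 at P7, 1.61-fold lower. Acta2 relative to Actc1, the cardiac actin of heart muscle cells, ranged from 0.0427 to 0.0648 at P1 and from 0.0277 to 0.0365 at P7, 1.56-fold lower. Actc1 itself was at 5548 ± 1035 FPKM at P1 and 4825 ± 1840 FPKM at P7 (SD, n = 4 each) and was not called. Myh11 relative to the non-muscle myosin gene Myh10 overlapped between stages, with a mean 2.00-fold higher at P7 (exact permutation p = 0.0571, adjusted p = 0.0735 over the 9 ratios).

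Pdgfrb relative to Pdgfra, the PDGF receptor of fibroblasts, was 0.839, 0.752, 0.570 and 0.990 in P1 replicates 1 to 4 and 1.03, 1.35, 1.51 and 1.52 in P7 replicates 1 to 4, so it was 1.73-fold higher at P7 with no overlap. Relative to the endothelial gene Pecam1, Pdgfrb ranged from 0.350 to 0.548 at P1 and from 0.660 to 0.792 at P7, 1.80-fold higher. Both ratios depend on the gene chosen to divide by. The log2 fold change was 1.20 for Pdgfrb and 0.44 for Pecam1, where 6 endothelial markers ran from -0.43 to 1.45 (median 0.75). Pdgfra, at 0.48, was the lowest of 6 fibroblast markers, which ran up to 1.55 (median 1.09). Rgs5 relative to Pecam1 overlapped, at 2.38 to 3.53 and 3.37 to 4.63 (exact permutation p = 0.0857, adjusted p = 0.0964 over the 9 ratios). Notch3 relative to Notch1, the main endothelial Notch receptor, overlapped as well, at 0.835 to 1.39 and 1.04 to 1.61 (exact permutation p = 0.171, the same after adjustment).

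Abcc9 relative to Kcnj8 compares the regulatory and pore subunits of a potassium channel found in pericytes. It was 10.9, 10.4, 12.2 and 5.47 in P1 replicates 1 to 4 and 4.00, 3.65, 3.12 and 4.06 in P7 replicates 1 to 4, 2.53-fold lower at P7. P1 replicate 4 was the P1 heart closest to the P7 range, and Kcnj8 rose from 3.99 ± 2.82 to 9.28 ± 1.07 FPKM (SD, n = 4 each, limma adjusted p = 0.0461) while Abcc9 was not called.

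**Figure D3:**
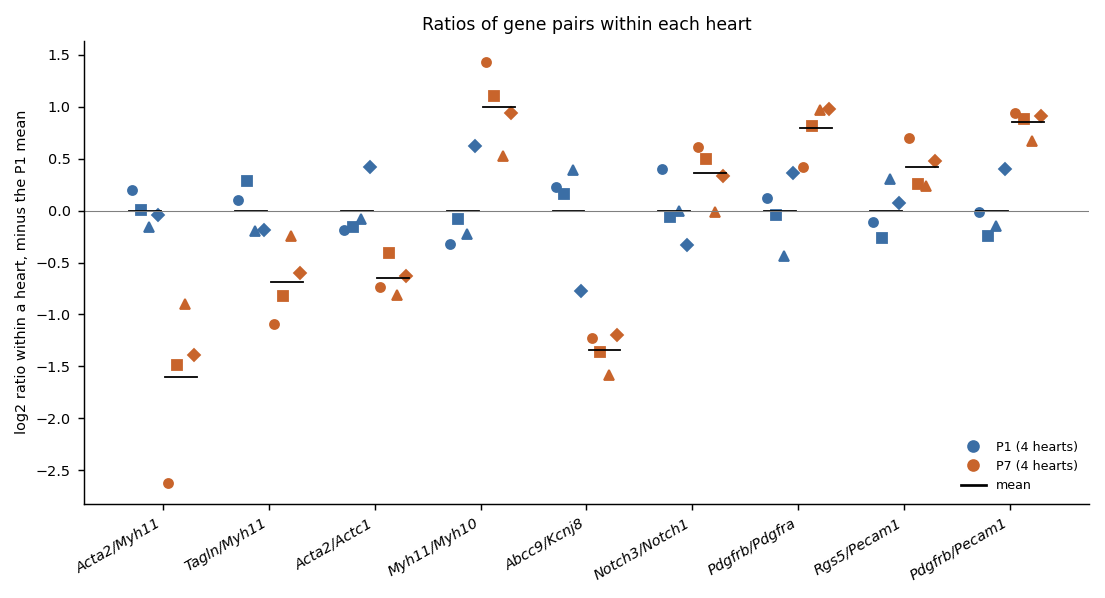
Log2 ratio of the FPKM of gene pairs within each heart, set to a P1 mean of 0 for each pair. Points are hearts (blue P1, orange P7; circle, square, triangle and diamond are replicates 1 to 4) and bars are means of 4 hearts; 6 of the 9 pairs are apart between the stages, and P7 replicate 1 lies lowest for Acta2/Myh11.

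3 further pairs were chosen after their values were seen and are given as a description. Cnn1 relative to Smtn was 0.657 to 1.27 at P1 and 0.140 to 0.203 at P7. Acta2 relative to Notch3 was 28.8 to 49.6 at P1 and 4.50 to 11.6 at P7. Acta2 relative to Tagln was 6.58 to 8.83 at P1 and 2.77 to 5.08 at P7.

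Genes around the 10 were read from lists of their pathways, whose counts are descriptions set against the 7.74% of annotated loci called higher and the 0.401% called lower. Of 16 other pericyte genes, 8 were called higher and 0 lower by limma, with a median log2 fold change of 0.90; 12 of the 16 had an unadjusted p under 0.05. Steap4, a metalloreductase, rose from 1.86 ± 0.333 to 5.95 ± 1.37 FPKM (SD, n = 4 each), with a log2 fold change at 1.27 (limma adjusted p = 0.00851). Vtn, which encodes vitronectin, had a log2 fold change of 1.26 (limma adjusted p = 0.0156). Its values were low, at 0.254 to 1.29 FPKM at P1 and 2.69 to 3.34 FPKM at P7. Ndufa4l2, a mitochondrial protein induced by hypoxia, had a log2 fold change of 1.24 (limma adjusted p = 0.00593). Cox4i2, a subunit of cytochrome c oxidase, had one of 1.16 (limma adjusted p = 0.0109). The called genes Higd1b, Anpep and Foxs1 had log2 fold changes of 0.86, 0.95 and 1.00. All of these were apart between the stages, while the eighth, Kcnj8, was not. P2ry14, named after its values were seen, went the other way, from 5.11 ± 0.999 to 3.29 ± 1.24 FPKM (SD, n = 4 each, limma adjusted p = 0.245). With median-ratio scaling 9 of the 16 were called higher, where 7.42% of annotated loci were. P2ry14 was then called lower at -0.76, where 3.85% were. Without P1 replicate 4, 10 of the 16 were called higher, where 15.4% of annotated loci were, and with the GC correction 1 was called, where 2.24% were.

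On the contractile side, 1 of 14 tested genes of a second smooth muscle list was called, with a list median of 0.30. It was Aoc3, an amine oxidase of smooth muscle, with a log2 fold change of 1.11 (limma adjusted p = 0.0375). Myl9, the regulatory myosin light chain, measured 647 ± 193 FPKM at P1 and 360 ± 167 at P7 (SD, n = 4 each, limma adjusted p = 0.156) and was named after its values were seen, since it was the other contractile gene called lower with median-ratio scaling. Ppp1r14a, an inhibitor of myosin phosphatase also named after its values were seen, ranged from 19.3 to 45.3 FPKM at P1 and from 53.9 to 61.8 at P7 (limma adjusted p = 0.0554).

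Of 11 regulators linked to SRF and myocardin, 3 were called higher and 0 lower, with a list median of 0.58. Klf4, a repressor of contractile genes, rose from 5.09 ± 1.70 to 14.3 ± 2.44 FPKM (SD, n = 4 each), with a log2 fold change at 1.37 (limma adjusted p = 0.0134). Tcf21, a factor of epicardial and fibroblast cells, had a log2 fold change of 1.00 (limma adjusted p = 0.0287). Mkl1, an SRF coactivator that responds to actin, had one of 0.95 (limma adjusted p = 0.0330). Srf was at 21.7 ± 4.17 and 38.0 ± 8.08 FPKM (SD, n = 4 each, limma adjusted p = 0.0671) and Myocd at 42.0 ± 7.27 and 43.6 ± 3.37 FPKM (SD, n = 4 each, limma adjusted p = 0.848), both named outside the rule as the factors the CArG box is known for.

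Among the ligands and targets of the receptors, 6 of 13 tested Notch pathway genes other than Notch3 were called higher and 0 lower, with a list median of 0.92. The ligand genes Jag2 and Dll4 had log2 fold changes of 1.32 (limma adjusted p = 0.0142) and 0.92 (limma adjusted p = 0.0323). The target genes Hey1, Heyl and Hes1 had 1.30 (limma adjusted p = 0.00615), 1.06 (limma adjusted p = 0.0171) and 1.04 (limma adjusted p = 0.0255). Heyl, a target known from mural cells, was at 3.73 ± 1.19 and 8.69 ± 0.287 FPKM (SD, n = 4 each). Hey2, another target and named after its values were seen, went the other way, from 28.7 ± 6.06 to 17.1 ± 1.90 FPKM (SD, n = 4 each) with all P7 hearts below all P1 hearts. Its log2 fold change of -0.70 did not pass (limma adjusted p = 0.0717), and with median-ratio scaling, where 7 genes of the list were called higher and 1 lower, it was called at -0.95. With that scaling 7.42% of annotated loci were called higher and 3.85% lower. Notch4, an endothelial receptor, had a log2 fold change of 1.05 (limma adjusted p = 0.0479). Of 12 PDGF ligands and partner genes, 2 were called higher and 0 lower with a list median of 0.20, and Pdgfb, the ligand that recruits pericytes, rose from 4.34 ± 1.44 to 11.0 ± 1.32 FPKM (SD, n = 4 each), with a log2 fold change at 1.20 (limma adjusted p = 0.0157). The other was the endothelial receptor Tie1 at 1.20 (limma adjusted p = 0.0201). With median-ratio scaling 2 genes of this list were called higher and 2 lower, against the same 7.42% and 3.85% of annotated loci. The 2 lower were the ligand gene Pdgfc at -0.65 and Angpt1, which encodes the angiopoietin that pericytes secrete, at -1.03. Both were named after their values were seen, and all P7 hearts were below all P1 hearts for Pdgfc. 3 of 16 tested paralogs of the 10 genes were called, all higher, among them Abcc8, which encodes the related SUR1, at 1.17 (limma adjusted p = 0.0230), and Smtnl2 at 0.71 (limma adjusted p = 0.0387). Without P1 replicate 4, 8 Notch pathway genes and 2 PDGF genes were called higher, where 15.4% of annotated loci were, and with the GC correction limma called 2 and 0, where 2.24% were (7 of the 12 PDGF genes had an unadjusted p under 0.05).

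**Figure D4:**
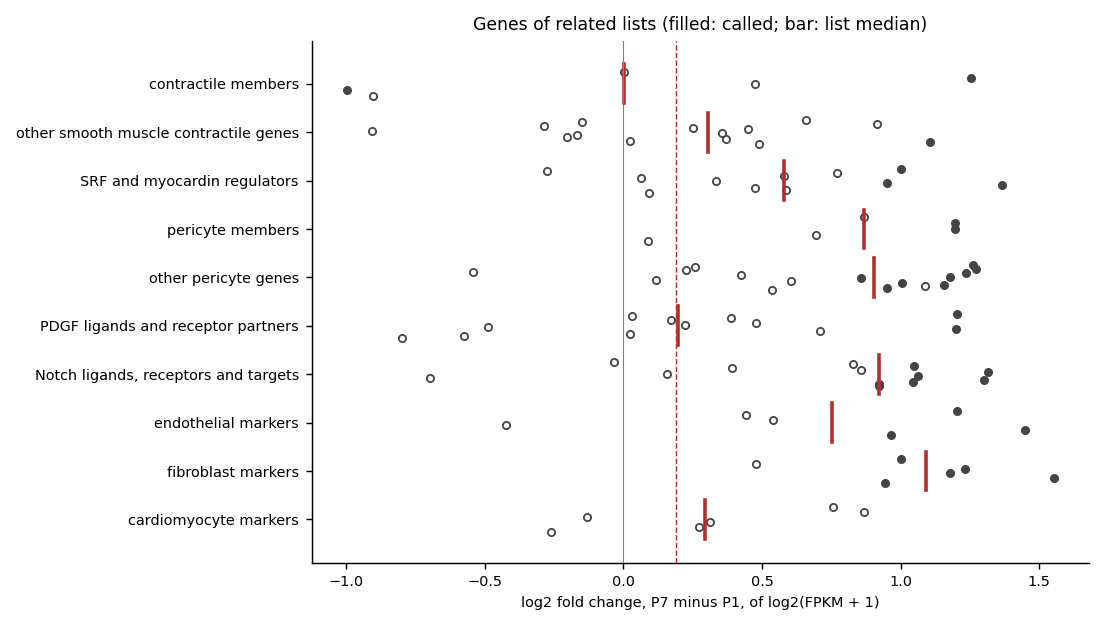
Log2 fold change (P7 minus P1, of log2(FPKM + 1)) of each tested gene in the contractile and pericyte groups, in related lists and in 3 lists of cell type markers. Filled points are called, the red bar is the median of the list and the dashed line the median of all annotated loci tested, 0.19; the medians of the pericyte, Notch and fibroblast lists lie between 0.87 and 1.09.

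Markers of other cell types moved between the same hearts. 5 of 6 fibroblast markers were called higher, and their summed level was 497 to 982 FPKM in P1 hearts and 1391 to 1681 FPKM in P7 hearts. 3 of 6 endothelial markers were called higher, Egfl7, Tie1 and Cdh5, with a summed level of 123 to 196 FPKM at P1 and 241 to 362 FPKM at P7. Egfl7 alone went from 57.03 ± 11.1 to 157 ± 27.9 FPKM (SD, n = 4 each), at a locus that also carries Fam69b, Gm20532 and Mir126. Emcn, an endothelial sialomucin named after its values were seen, was below all P1 hearts in every P7 heart, at 29.2 ± 2.34 and 21.7 ± 3.93 FPKM (SD, n = 4 each, limma adjusted p = 0.244), and was called lower with median-ratio scaling. 0 of 6 cardiomyocyte markers were called by limma (2 had an unadjusted p under 0.05), and their summed levels overlapped at 8995 to 17161 and 11240 to 19050 FPKM. In P1 replicate 4 the summed fibroblast level was 1.73 times, the cardiomyocyte level 1.59 times and the endothelial level 1.37 times the mean of the other P1 hearts. The 5 contractile genes summed to 2.02 times and the 5 pericyte genes to 1.76 times that mean. 1 of 6 leukocyte markers, Lyz2, was called higher, with a summed level of 19.7 to 26.4 and 40.9 to 55.2 FPKM. Eln, the elastin of large arteries and valves, was the called one of 6 markers of atria and large vessels, at 121 ± 28.5 and 369 ± 50.7 FPKM (SD, n = 4 each, limma adjusted p = 0.00560). Epicardial, Schwann and nerve, and red cell markers had 0 genes called by limma (1 of 6, 2 of 3 and 4 of 6 tested had an unadjusted p under 0.05). Their summed levels overlapped between the stages, at 21.1 to 43.9 and 21.9 to 34.3 FPKM, 20.4 to 30.6 and 12.2 to 21.5 FPKM, and 315 to 961 and 921 to 1223 FPKM, and Th and Gfap were at 0 in some hearts. With the GC correction 4 of the 6 fibroblast and 1 of the 6 endothelial markers were called. The part of these cells in the levels of the 10 genes was not tested.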

How the data were processed

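RNA-seq was performed on whole hearts of 4 P1 and 4 P7 mice, 1 library per heart. For the authors, a service provider mapped the reads to the GRCm38 genome using the Ensembl annotation (release 70), and FPKM per locus were deposited for each heart; the aligner and counter are not given in the sources used here. The files hold no fragment counts, so the depth and its precision are unknown, and sampling intervals are not given. Low values rise in steps, which gave no unique value of 1 fragment.

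Groups follow the sample titles. Loci that reached 1 FPKM in any heart (43172, of which 17960 carry a gene symbol) were transformed to log2(FPKM + 1) and compared with limma 3.58.1 (R 4.3.3), lmFit and eBayes with trend, on all 8 hearts with no covariate. P-values were adjusted over all tested loci with the Benjamini-Hochberg method. The script was tested on simulated data. Levels and ratios were compared with two-sided exact permutation tests over all 70 assignments of hearts (Python 3.11.15, pandas 2.3.3, numpy 2.4.6, scipy 1.17.1), and figures were drawn with matplotlib 3.10.9.

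The 10 genes and the lists were chosen with earlier results of these data known. Named beyond the 10 are the called genes of each list, up to 5 by absolute log2 fold change, and every gene of a within-heart ratio; Higd1b, Anpep, Foxs1 and Dll4 complete the called genes of their lists, and others chosen after seeing their values are marked where they appear. Foxf1a and Acta1 were not analysed here. One further list is not reported here. Gene overlaps come from GENCODE M21 and bases before a start from RefSeq, both on GRCm38. The 18 alternatives planned and 4 settings added after seeing the data are given in the closing section: another pseudocount, other filters, scalings and variance models, the replicate block, each heart left out, summed loci, and a GC correction (lowess span 0.3).

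Same-numbered P1 and P7 hearts did not deviate together, so replicate numbers were not used to pair samples.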

Additional observations from a re-analysis of the deposited data

Results flagged for a closer look

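In 4 of 38 groups of 4 hearts examined, 1 heart lay far from the others by Dixon's ratio, its gap to the nearest heart over the range of its group. Chance alone gives about 1 in 20 groups, or 1.9 of 38. P1 replicate 4 was far above the other P1 hearts for Acta2 (ratio 0.9139; 455 against 214 to 235 FPKM), for Myh11 (ratio 0.8699; 3.37 against 1.47 to 1.71 FPKM) and for Acta2 relative to Actc1 (ratio 0.848; 0.0648 against 0.0427 to 0.0461). P7 replicate 1 was above the other P7 hearts for Abcc9 (ratio 0.8988; 40.6 against 31.8 to 32.7 FPKM). The remaining members of the contractile and pericyte groups did not pass this limit in either stage, although all were highest in P1 replicate 4 among P1 hearts.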

How the results depend on the processing

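4 of the 10 genes and 1650 of 43172 tested loci were called by limma. The pseudocount of 0.1, summed loci and the adjusted p alone gave the same 4 genes. Without a filter 1 gene (Notch3) and 686 of 72425 loci were called, and with 1 FPKM in every heart 6 genes and 2711 of 14340 loci. Of the loci with a gene symbol, 620 of 31885 were called without a filter and 2573 of 12730 with 1 FPKM in every heart. The fit without trend called 2 genes (Smtn and Notch3) and 1079 of 43172 loci, and array weights 6 genes and 3697 of 43172 loci. Median-ratio scaling gave 5 genes, adding Acta2, and 2404 of 48584 loci. It moved the median log2 fold change of annotated loci by -0.21 and the share of called annotated loci that were higher from 95.1% to 65.8%. Chosen after seeing the data, the GC correction gave 0 genes (6 with an unadjusted p under 0.05) and 486 of 43172 loci. Also chosen then, median-ratio scaling without P1 replicate 4 gave 7 genes and 3256 of 46874 loci.

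The replicate numbers did not pair the hearts (correlations of same-numbered deviations from -0.102 to 0.122). With the replicate block the same 4 genes and 1283 of 43172 loci were called. The block gave 2 genes (Cnn1 and Rgs5) and 497 of 43172 loci with the GC correction, and 5 genes and 1670 of 48584 loci with median-ratio scaling.

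Fits with a single heart left out called 0 to 7 genes. The lowest count was without P1 replicate 2 (6 genes at an unadjusted p under 0.05), where 199 of 41471 loci were called. The highest was without P1 replicate 4, where 3379 of 41540 loci were. 1 gene, Notch3, was left without P1 replicate 1 (928 of 41919 loci called) or P1 replicate 3 (490 of 34934). Notch3 alone was also left without P7 replicate 1 (346 of 41956), P7 replicate 3 (321 of 42603) or P7 replicate 4 (835 of 42521). Without P7 replicate 2, 2 genes (Pdgfrb and Notch3) and 1146 of 42238 loci were called. Counts of genes with the stages apart ran from 4 to 8. Of the 9 ratios, 6 to 7 were apart, and each kept its direction when 1 heart was left out.

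The sign of Tagln and Abcc9 was not stable. Against a log2 fold change of 0.000421, Tagln was at -0.26 with median-ratio scaling, with or without the block, -0.27 with quantile normalization, -0.14 with the GC correction, with or without the block, and -0.16 with median-ratio scaling without P1 replicate 4. Leaving out 1 heart put it between -0.11 and 0.20. Against 0.09, Abcc9 was at -0.17 with median-ratio scaling, with or without the block, -0.18 with quantile normalization, -0.12 with median-ratio scaling without P1 replicate 4, and between -0.035 and 0.25 with 1 heart left out. The cause was not tested. Fragment depth is unknown, which limits most the low genes such as Myh11, and with 4 hearts per stage an exact test cannot go below 0.0286.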
